A study of Mus musculus with 15 samples.

Results

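The 4 chemokine genes and 2 growth factor genes that bring neutrophils into tissue were followed through mouse melanoma grafts: Cxcl1, Cxcl2, Cxcl3, Cxcl5, Csf3 and Csf2. These 6 genes were taken by symbol from a table of 23420 gene rows, and all 6 were found. They were described over 15 bulk tumor libraries in 5 groups of 3. The groups were UV2 tumors given anti-PD-1, UV2 tumors given isotype antibody, parental tumors given triple therapy, parental tumors given anti-PD-1, and parental tumors given isotype antibody. Anti-PD-1 blocks PD-1, a receptor that restrains T cells, and the isotype antibody is its control. The parental line is D4M.3A.3 and the UV2 line is D3UV2, both mouse melanoma lines. Each flank of female C57BL/6 mice aged 8 weeks received 1000000 cells, and the left-flank tumors were treated on days 8, 10 and 12 and taken on day 13. Triple therapy adds imiquimod, a cream that activates Tlr7, and ablative fractional photothermolysis, which vaporises fine columns of skin with laser light, on days 8 and 12. The sample labels list anti-PD-1 as its antibody, whereas the treatment protocol lists isotype antibody. The protocol names a lotion in place of imiquimod without saying which groups got it, and no label ties the libraries of a group to separate mice, so the p-values reflect variation among the samples sequenced, which may be technical.

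Chemokines are small secreted proteins that guide white blood cells along a gradient. Cxcl1, Cxcl2, Cxcl3 and Cxcl5 share a glutamate-leucine-arginine motif near the amino end and attract neutrophils through the receptor Cxcr2. Csf3 encodes G-CSF, which drives the making of neutrophils in bone marrow and their release into blood through the receptor Csf3r. Csf2 encodes GM-CSF, which acts on granulocytes, macrophages and dendritic cells through Csf2ra and Csf2rb. In skin, keratinocytes, fibroblasts, macrophages and mast cells can make the chemokines after injury or exposure to IL-1, TNF or IL-17. Their genes are known targets of NF-κB, and their messages are short-lived because AU-rich elements in the 3′ end mark them for decay.

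The 4 chemokine genes lie close together. In the GENCODE M21 annotation of GRCm38, Cxcl5 (chr5:90759360-90761624), Cxcl3 (chr5:90786103-90789600), Cxcl1 (chr5:90891241-90893115) and Cxcl2 (chr5:90903871-90905938) sit on the plus strand within 146.6 kb. The stretch holds 7 protein-coding genes, the others being Ppbp, Pf4 and Cxcl15, all 3 chemokine genes too. Csf3 (chr11:98701263-98703629, plus strand) and Csf2 (chr11:54247271-54249667, minus strand) are both on chromosome 11, far apart.

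Promoter windows from RefSeq (GRCm38.p6), 250 bases before to 50 bases after the annotated start, were found for 4 of the 6 genes; Cxcl5 and Csf3 had none in the table used. The windows of Cxcl1 (chr5:90890995-90891294), Cxcl2 (chr5:90903649-90903948) and Cxcl3 (chr5:90785851-90786150), all on the plus strand, are shown because each holds the NF-κB consensus. The capitals mark it.
Cxcl1: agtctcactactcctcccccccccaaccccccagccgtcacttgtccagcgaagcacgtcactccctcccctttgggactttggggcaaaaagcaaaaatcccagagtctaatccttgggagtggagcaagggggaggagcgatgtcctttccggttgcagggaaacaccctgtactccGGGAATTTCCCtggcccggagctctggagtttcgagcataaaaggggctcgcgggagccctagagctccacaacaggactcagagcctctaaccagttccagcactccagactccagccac
Cxcl2: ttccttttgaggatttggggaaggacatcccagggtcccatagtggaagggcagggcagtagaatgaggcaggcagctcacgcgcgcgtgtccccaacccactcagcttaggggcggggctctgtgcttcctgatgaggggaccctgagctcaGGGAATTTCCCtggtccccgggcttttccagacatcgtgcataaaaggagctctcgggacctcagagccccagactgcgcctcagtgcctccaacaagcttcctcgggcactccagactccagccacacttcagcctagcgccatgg
Cxcl3: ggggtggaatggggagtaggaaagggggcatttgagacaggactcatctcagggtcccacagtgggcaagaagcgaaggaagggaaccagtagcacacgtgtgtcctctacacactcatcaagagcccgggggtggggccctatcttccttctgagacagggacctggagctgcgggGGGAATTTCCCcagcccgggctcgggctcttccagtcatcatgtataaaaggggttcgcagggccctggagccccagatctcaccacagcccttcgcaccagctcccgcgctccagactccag
The same 11 letters, GGGAATTTCCC, stand in all 3 windows, where they match the consensus once on each strand, the 2 matches offset by 1 base. They run from base -71 to -61 in Cxcl1, -97 to -87 in Cxcl2 and -73 to -63 in Cxcl3, counted from the RefSeq start. For Cxcl2 that start lies downstream of the GENCODE start at base 90903871. Counted from the GENCODE start, the Cxcl2 match would lie nearer. Over all 32851 RefSeq windows of the same length, 8.46% held the consensus on either strand. On either strand, the AP-1 motif TGANTCA was in none of the 4 windows (7.81% of all windows) and the C/EBP motif TTGCNNAA only in that of Csf2 (10.8%). TATAAA was searched on the sense strand and found only in that of Cxcl3 (8.32%). The Csf2 window (chr11:54249850-54250149, minus strand) held no match to the NF-κB consensus, and RefSeq places that start upstream of the GENCODE start. The window ends before the GENCODE start at base 54249667, so the bases just ahead of that start were not searched for any motif. A match is a run of letters in this window and no measurement of binding.

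The 3′ UTRs of these genes hold more copies of ATTTA, the core of AU-rich elements, than the median gene. By the GENCODE M21 transcripts, Csf2 has 9 copies in 317 bases, Cxcl1 7 in 592, Csf3 6 in 669, Cxcl3 5 in 645, Cxcl2 11 in 1494 and Cxcl5 5 in 1111. The median over 21007 genes is 1 copy in a median length of 961 bases. At least as many copies as in Cxcl2 occur in 5.46% of these genes, as in Csf2 in 8.57% and as in Cxcl1 in 13.3%. For Csf3 the share is 16.9%, and for Cxcl3 and Cxcl5 it is 21.6%. The longer form ATTTATTTA occurs in 3 of the 6, with 5 copies in Csf2, 4 in Cxcl2 and 2 in Cxcl1. It occurs in 6.16% of all genes, and in 2.65% of those whose 3′ UTR has at most 1500 bases. These 26-base stretches show its first copy in each of the 3 genes, with ATTTA runs in capitals. The later copies are not shown.
Cxcl1: agggtcctATTTATTTAtgtATTTAt
Cxcl2: gttcacttATTTATTTAtctatgtat
Csf2: accattatATTTATTTAtatATTTAt
The Cxcl1 and Csf2 stretches carry a further ATTTA 3 bases after the long form, and the Cxcl2 stretch does not.

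Values are TPM, a transcript abundance that the authors scaled by transcript length and by library so that each column totals 1000000; levels of different genes can therefore be set side by side. The reads behind each value are unknown, so no counting interval is given, and a value listed at 0 may be an absence of reads or a failed estimate. All 6 genes were scarce in most tumors. Cxcl5 was the most abundant of them in 10 libraries and Cxcl1 in the other 5. At least 1 TPM was reached in 14 libraries by Cxcl5, 13 by Cxcl1, 7 by Cxcl2, 7 by Cxcl3, 3 by Csf2 and 1 by Csf3. Cxcl2 and Cxcl3 transcripts share an identical run of 110 bases, so reads from it could be assigned to either, and their values are uncertain to that extent. No other pair shares a run above 23 bases.

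Cxcl1, known as KC or the mouse counterpart of GRO-alpha, measured 8.54, 11.25 and 7.45 TPM in the 3 parental triple therapy libraries. The parental anti-PD-1 libraries held 3.48, 2.05 and 2.80 TPM, and the parental isotype libraries 0.50, 2.56 and 0.96 TPM. In UV2 tumors it was 3.87, 6.54 and 3.06 TPM with anti-PD-1 and 1.57, 2.78 and 3.04 TPM with isotype. Every triple therapy library stood above all 12 others. The order of group means ran from triple therapy (9.08 ± 1.96 TPM, SD, n = 3) through UV2 anti-PD-1 (4.49 ± 1.82), parental anti-PD-1 (2.78 ± 0.72) and UV2 isotype (2.46 ± 0.78) to parental isotype (1.34 ± 1.08). Below triple therapy, neighbours in this order overlapped. In bulk tumor RNA, more cells of a kind and more RNA per cell cannot be told apart.

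Cxcl2, or MIP-2, is made fast by activated macrophages and other cells. It measured 90.63, 2.44 and 5.62 TPM in parental triple therapy libraries, against 3.02, 0.59 and 1.55 TPM in parental anti-PD-1 libraries and 0, 0 and 0.84 TPM in parental isotype libraries. UV2 tumors held 1.46, 3.14 and 0.23 TPM with anti-PD-1 and 0.25, 0.21 and 0.69 TPM with isotype. Triple therapy replicate 1 alone carried 91.8% of that group's summed Cxcl2. The other 2 averaged 4.03 TPM, and replicate 2 lay within the range of both anti-PD-1 groups.

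Cxcl3 followed the same shape, with 54.54, 4.29 and 2.83 TPM in parental triple therapy libraries. It was at 1.18, 0 and 0.71 TPM in parental anti-PD-1 libraries and 0.23, 0.27 and 1.12 TPM in parental isotype libraries. UV2 libraries held 0.40, 1.63 and 0 TPM with anti-PD-1 and 0, 1.02 and 0 TPM with isotype. All 3 triple therapy libraries exceeded the other 12, and replicate 1 carried 88.5% of the group's sum. The other 4 groups overlapped throughout.

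Cxcl5, or LIX, is a chemokine of epithelial and stromal cells. It had 92.80, 18.17 and 50.67 TPM in parental triple therapy libraries, 18.24, 1.01 and 1.70 TPM in parental anti-PD-1 libraries and 4.84, 3.01 and 17.29 TPM in parental isotype libraries. UV2 tumors held 18.49, 38.84 and 1.41 TPM with anti-PD-1 and 0.71, 1.61 and 6.77 TPM with isotype. Each of the 4 groups without imiquimod or laser held libraries several times apart, and triple therapy replicate 2 stood level with the highest parental anti-PD-1 library. Only the triple therapy and UV2 isotype groups, and the triple therapy and parental isotype groups, were apart in every library.

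Csf3 was listed at 0 in 10 of 15 libraries, including all 6 UV2 libraries. It measured 3.29, 0.70 and 0.47 TPM in parental triple therapy libraries, against 0, 0 and 0.17 TPM with parental anti-PD-1 and 0, 0 and 0.33 TPM with parental isotype. The triple therapy libraries were the 3 highest of the 15. Csf2 behaved otherwise: its highest values were in UV2 tumors, with 1.05, 1.28 and 0.61 TPM with anti-PD-1 and 0.52, 2.21 and 0.85 TPM with isotype. Parental libraries held 0.52, 0.47 and 0.63 TPM with triple therapy, 0.29, 0.21 and 0.46 TPM with anti-PD-1, and 0, 0.52 and 0 TPM with isotype. The UV2 isotype mean (1.19 ± 0.90 TPM, SD, n = 3) led the order, followed by UV2 anti-PD-1 (0.98 ± 0.34), triple therapy (0.54 ± 0.08), parental anti-PD-1 (0.32 ± 0.13) and parental isotype (0.17 ± 0.30), and of these neighbours only triple therapy and parental anti-PD-1 did not overlap.

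**Figure D1:**
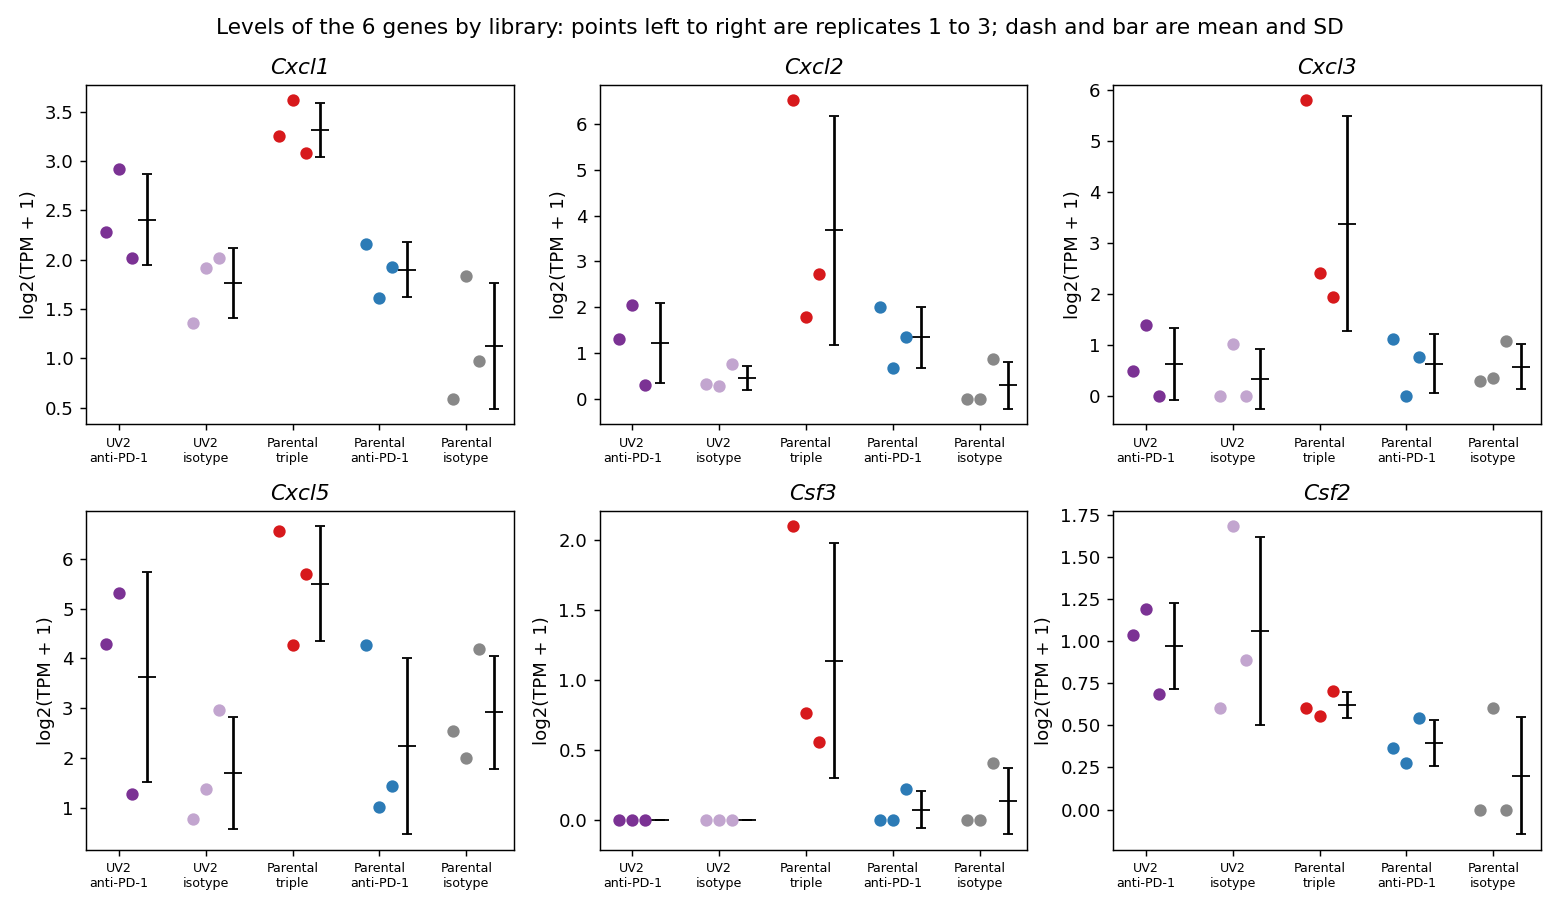
Levels of the 6 genes as log2(TPM + 1) on the vertical axis, by group on the horizontal axis; each point is a library and the dash with its bar is the mean and SD of 3. Triple therapy is highest for Cxcl1, Cxcl2, Cxcl3, Cxcl5 and Csf3, with replicate 1 far above its group for Cxcl2 (90.63 TPM) and Cxcl3 (54.54 TPM), while Csf2 is highest in UV2 tumors.

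Triple therapy against isotype antibody in parental tumors asks what the combined treatment changed. All 4 chemokines and Csf3 were higher in each triple therapy library than in each isotype library, 5 of the 6 genes, where 12.7% of all genes tested had groups apart in that direction and 3.39% in the other; Csf2 overlapped. Differences were tested with limma on log2(TPM + 1) over the 13592 genes with at least 1 TPM in at least 3 libraries, a filter that 5 of the 6 passed and Csf3 did not. Csf2 passed it through UV2 libraries alone. Fold changes on this scale understate those of scarce genes. Cxcl1 had a log2 fold change of 2.19 ± 0.34 (SE), the fourth smallest p of all genes (2.15e-05), and missed the 0.05 threshold after Benjamini-Hochberg adjustment (limma adjusted p = 0.0592). Cxcl2 measured 3.38 ± 0.91 (limma adjusted p = 0.313), Cxcl3 2.80 ± 0.79 (0.316), Cxcl5 2.59 ± 1.10 (0.366) and Csf2 0.42 ± 0.28 (0.564). By limma 0 of the 5 were called, against 0.0221% of all genes (3 of 13592); at an unadjusted p below 0.05, 4 of the 5 passed, all but Csf2, against 12.6% of all genes. Their median log2 fold change was 2.59, against 0.12 over all genes tested. For Csf3 the difference of mean log2(TPM + 1) was 1.00 (exact permutation test, two-sided, p = 0.1, the smallest that 3 against 3 allows).

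These values lean on single libraries. Without triple therapy replicate 1, the log2 fold change of Cxcl2 was 1.96 and that of Cxcl3 1.59, beside 2.22 for Cxcl1 and 2.06 for Cxcl5. Without triple therapy replicate 2, Cxcl1 at 2.04 (limma adjusted p = 0.0253) and Cxcl2 at 4.33 (limma adjusted p = 0.0324) passed the test, and 257 genes passed in all. Over the fits that each leave out a library of these groups, the limma adjusted p reached 0.4335 for Cxcl1 and 0.72 for Cxcl2. It ran from 0.06391 to 0.873 for Cxcl3 and from 0.1518 to 0.9988 for Cxcl5. The order of the genes by size of change thus depended on replicate 1, and Cxcl1 was the steadiest of the chemokines, its libraries within triple therapy differing by 1.51 times at most, against 37.1 times for Cxcl2, 19.3 times for Cxcl3 and 5.11 times for Cxcl5.

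Set against anti-PD-1 in place of isotype, triple therapy again gave chemokine estimates all above 1 log2 unit; the 2 comparisons share the triple therapy libraries. Cxcl1, Cxcl3, Csf3 and Csf2 were higher in every triple therapy library, 4 of the 6, where 7.3% of all genes were so and 5.01% were lower in every one. The log2 fold changes were 1.42 ± 0.34 for Cxcl1 (SE, limma adjusted p = 0.377), 2.33 ± 0.91 for Cxcl2 (0.431), 2.75 ± 0.79 for Cxcl3 (0.384), 3.27 ± 1.10 for Cxcl5 (0.394) and 0.23 ± 0.28 for Csf2 (0.906). By limma 0 of 5 were called, as were 0% of all genes; 4 of 5 had an unadjusted p below 0.05, against 10.4% of all genes. Csf3 differed by 1.07 (exact permutation test, two-sided, p = 0.1). Without triple therapy replicate 1, the log2 fold change of Cxcl2 was 0.91 and that of Cxcl3 1.54.

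Anti-PD-1 against isotype asks what the antibody alone changed. In parental tumors no gene of the 6 had groups apart, against 2.7% of all genes with anti-PD-1 higher and 1.57% lower, and limma called 0 of 5 and 0% of all genes. The log2 fold changes were 0.77 ± 0.34 for Cxcl1 (SE), 1.05 ± 0.91 for Cxcl2, 0.06 ± 0.79 for Cxcl3, -0.68 ± 1.10 for Cxcl5 and 0.19 ± 0.28 for Csf2 (limma adjusted p = 1 for each); 1 of 5, Cxcl1, had an unadjusted p below 0.05, against 0.611% of all genes. Csf3 differed by -0.06 (exact permutation test, two-sided, p = 1). In UV2 tumors, anti-PD-1 against isotype left Cxcl1 narrowly apart, at 3.06 TPM in the lowest anti-PD-1 library against 3.04 TPM in the highest isotype library. It was 1 of the 6, where 5.7% of all genes stood apart in that direction and 7.28% in the other. Its log2 fold change was 0.64 ± 0.34 (SE, limma adjusted p = 0.557), beside 1.92 ± 1.10 for Cxcl5 (0.563), 0.76 ± 0.91 for Cxcl2 (0.709), 0.29 ± 0.79 for Cxcl3 (0.863) and -0.09 ± 0.28 for Csf2 (0.884). Limma called 0 of 5, against 0.0147% of all genes, and 0 of 5 had an unadjusted p below 0.05, against 9.16%. Csf3 was listed at 0 in both groups.

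The response to anti-PD-1 was set between the lines by an interaction term. For Cxcl5 the response in UV2 tumors minus that in parental tumors was 2.60 ± 1.55 on the log2 scale (SE, limma adjusted p = 0.800), the widest of the 5. For Cxcl1 it was -0.13 ± 0.48 (0.932), for Cxcl2 -0.28 ± 1.29 (0.945), for Cxcl3 0.23 ± 1.12 (0.949) and for Csf2 -0.28 ± 0.40 (0.826). Limma called 0 of 5 and 0% of all genes, and 0 of 5 had an unadjusted p below 0.05, against 2.97% of all genes. The standard errors of Cxcl2, Cxcl3 and Cxcl5 are above 1 log2 unit, so a difference of that size was not detectable with 3 libraries a group.

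Between the lines under isotype antibody, UV2 against parental, none of the 6 genes had groups apart, where 10.4% of all genes were higher and 9.15% lower in every UV2 library. Csf2 had a log2 fold change of 0.86 ± 0.28 (SE, limma adjusted p = 0.132), Cxcl1 0.64 ± 0.34 (0.354), Cxcl2 0.16 ± 0.91 (0.955), Cxcl3 -0.24 ± 0.79 (0.912) and Cxcl5 -1.21 ± 1.10 (0.623). Limma called 0 of 5, against 1.29% of all genes; Csf2 was the 1 of 5 with an unadjusted p below 0.05, against 17.8%, but it had entered the test only through UV2 libraries, so nothing is read from its direction between the lines. Under anti-PD-1, UV2 against parental, Csf2 was higher in every UV2 library, 1 of the 6, where 16.9% of all genes were so and 34.3% were lower in every one. Its log2 fold change was 0.57 ± 0.28 (SE, limma adjusted p = 0.131), beside 0.51 ± 0.34 for Cxcl1 (0.250), -0.13 ± 0.91 for Cxcl2 (0.921), -0.01 ± 0.79 for Cxcl3 (0.996) and 1.39 ± 1.10 for Cxcl5 (0.332). Limma called 0 of 5, against 26.4% of all genes (3586), a count that came to 9 genes without parental anti-PD-1 replicate 3 and also to 9 without UV2 anti-PD-1 replicate 3. At an unadjusted p below 0.05, 0 of 5 passed, against 45.1%. Csf3 differed by -0.14 under isotype and -0.08 under anti-PD-1 (exact permutation test, two-sided, p = 1 for each).

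**Figure D2:**
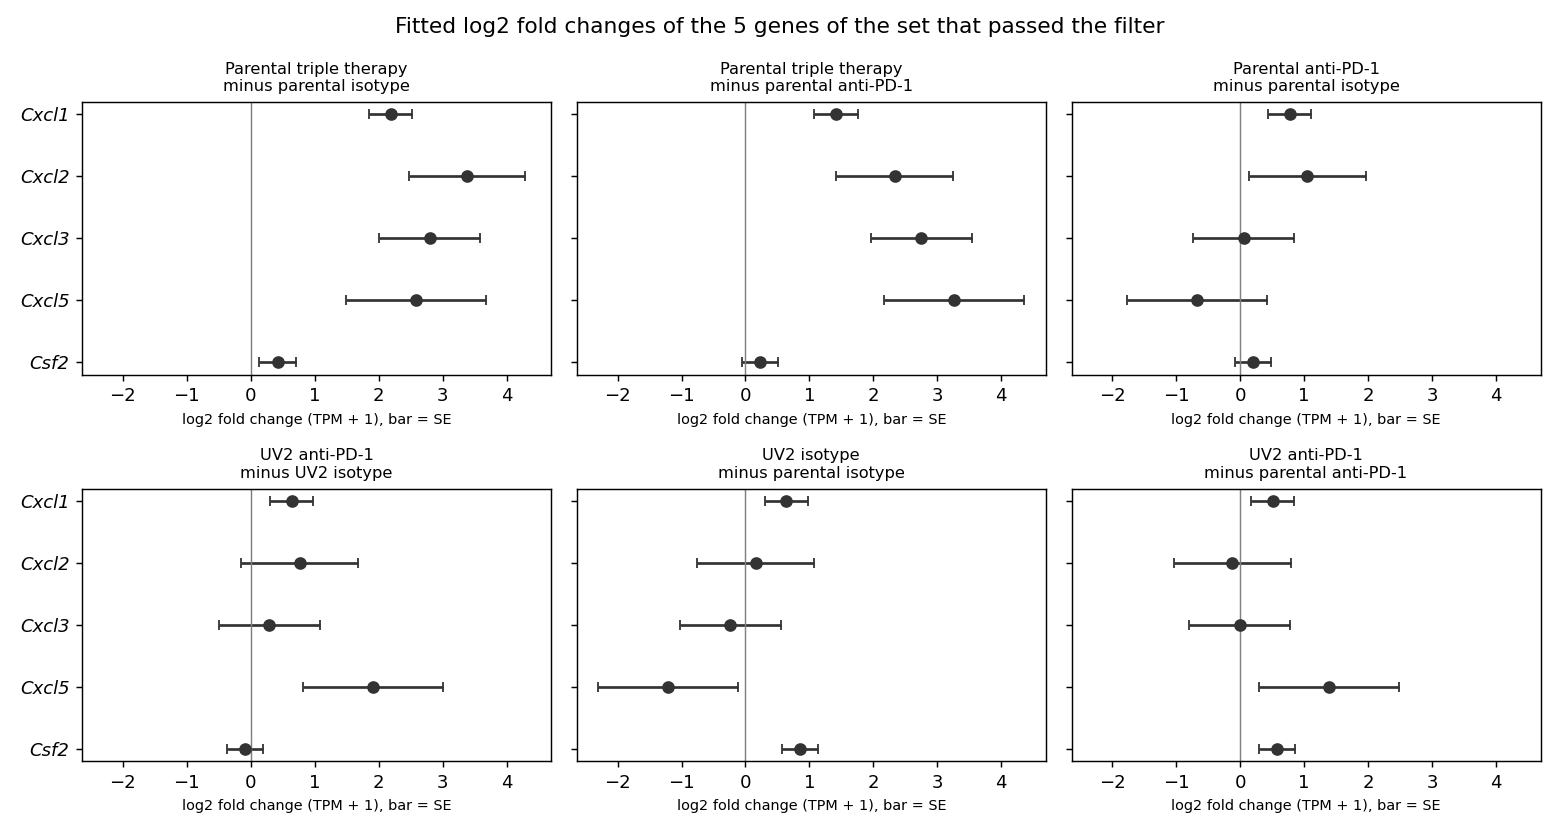
Fitted log2 fold changes (horizontal axis, TPM + 1 scale) of the 5 genes that passed the filter, in 6 comparisons; points are estimates and bars are SE. In both triple therapy panels the 4 chemokines lie between 1.42 and 3.38, while in the 4 anti-PD-1 and line panels Cxcl1 lies between 0.51 and 0.77, Cxcl2 and Cxcl3 between -0.24 and 1.05, and Cxcl5 between -1.21 and 1.92.

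Csf3r and Csf2ra, the receptors of the growth factors, exceeded their ligands in TPM in every library. Cxcr2, the receptor of the 4 chemokines, measured 35.56, 4.05 and 13.31 TPM in parental triple therapy libraries, against 3.68, 0.56 and 1.06 TPM with parental anti-PD-1 and 0.84, 1.07 and 3.63 TPM with parental isotype. In UV2 tumors it was 2.46, 6.75 and 0.71 TPM with anti-PD-1 and 1.94, 1.35 and 2.71 TPM with isotype. Triple therapy exceeded both other parental groups in every library, at log2 fold changes of 2.41 ± 0.70 against isotype (SE, limma adjusted p = 0.320) and 2.49 ± 0.70 against anti-PD-1 (limma adjusted p = 0.382); without triple therapy replicate 2 the first of these passed (limma adjusted p = 0.0395). Cxcr1, a related chemokine receptor, was listed at 0 in most libraries and reached 1.90 TPM in triple therapy replicate 1. Csf3r, the G-CSF receptor of neutrophils and monocytes, had 61.55, 14.34 and 26.42 TPM with triple therapy and 7.89, 8.23 and 14.15 TPM with parental isotype, a log2 fold change of 1.47 ± 0.51 (SE, limma adjusted p = 0.339). It was 22.89, 11.01 and 7.87 TPM with parental anti-PD-1. In UV2 tumors Csf3r was 41.38, 35.27 and 27.69 TPM with anti-PD-1 and 10.66, 14.41 and 31.17 TPM with isotype. High Csf3r was thus not particular to triple therapy. Csf2ra, the GM-CSF receptor alpha chain, was higher in UV2 than in parental tumors under anti-PD-1, at 51.0 ± 12.1 TPM in UV2 against 22.5 ± 4.31 TPM in parental tumors (SD, n = 3 each), a log2 fold change of 1.14 ± 0.31 (SE, limma adjusted p = 0.0263). With each of the 6 libraries left out in turn, it passed in 2 fits (limma adjusted p 0.0452 to 0.107). Under isotype the log2 fold change between the lines was 0.97 ± 0.31 with groups apart (SE, limma adjusted p = 0.123). It was the 1 of 6 tested receptor genes called under anti-PD-1, a smaller share than the 26.4% of all genes, and none was called in the other 5 or in the interaction.

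The cytokines that induce these chemokines differed from each other in pattern, and none passed the test for triple therapy against isotype. Tnf, an activator of NF-κB, measured 13.11, 10.32 and 10.69 TPM in parental triple therapy libraries, 6.46, 6.75 and 5.93 TPM with parental anti-PD-1 and 4.11, 4.54 and 5.22 TPM with parental isotype. Every triple therapy library was above both other parental groups, with a log2 fold change of 1.14 ± 0.19 against isotype (SE, limma adjusted p = 0.0913). Tnf passed the test between the lines, at 17.1 ± 2.58 TPM in UV2 against 6.38 ± 0.42 TPM in parental tumors under anti-PD-1 (SD, n = 3 each, log2 fold change 1.29 ± 0.19, SE, limma adjusted p = 0.00927), and in 4 of the 6 fits that leave out a library (limma adjusted p 0.0166 to 0.0611); none of the 4 chemokines passed there. Il1a, an alarmin that epithelial cells release when damaged, measured 16.05, 1.18 and 1.27 TPM with triple therapy and at most 0.90 TPM in any of the 12 other libraries. All 3 triple therapy libraries were thus highest, replicate 1 by far, at a log2 fold change of 1.92 ± 0.60 against isotype (SE, limma adjusted p = 0.323). Il1a reached 1 TPM in these 3 libraries alone and so passed the filter only through the group where it is high. Il1b overlapped, at 154.05, 52.43 and 68.69 TPM with triple therapy and 27.07, 28.72 and 82.73 TPM with parental isotype (log2 fold change 1.02 ± 0.60, SE, limma adjusted p = 0.503). Il6 overlapped too, with a log2 fold change of 0.19 ± 0.44 (SE, limma adjusted p = 0.869). Il17a, a T cell cytokine that drives Csf3 and the chemokines in epithelium, was listed at 0 in 13 of 15 libraries and reached 0.23 TPM in triple therapy replicate 1.

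Wider lists were counted in the same way for triple therapy against isotype. Of the genes tested, 0 of 6 receptors, 0 of 11 inducing cytokines and alarmins, 0 of 15 NF-κB feedback and decay genes, 0 of 6 monocyte-attracting CC chemokines, 0 of 3 other CXC genes (Cxcl12, Cxcr4 and Pf4) and 0 of 4 other colony-stimulating factor genes passed limma, with median log2 fold changes of 0.89, 0.64, 0.40, 0.69, 0.69 and -0.06. Of the neutrophil markers 0 of 17 passed (median 1.47), and 1 of the 17, Stfa2l1, entered the test only through triple therapy. Of the keratinocyte markers 2 of 14 passed, Krt16 and Krt6a, with a median of 5.04; 11 of the 14 reached 1 TPM in fewer than 3 libraries outside triple therapy and so entered the test only through it, which sets their direction there. None of the macrophage, fibroblast, endothelial, muscle, T cell and melanoma marker genes passed. Without triple therapy replicate 2, 257 of all 13592 genes tested passed. Calls then rose to 1 of 6 receptors (Cxcr2), 2 of 11 inducers (Tnf and Il1f9, an IL-36 cytokine), 6 of 17 neutrophil markers and 10 of 14 keratinocyte markers. The limit that the filter sets on the keratinocyte markers holds here too. Against anti-PD-1, and for anti-PD-1 against isotype in either line, 0 genes of any of these lists passed. Between the lines under anti-PD-1, where 26.4% of all genes passed, 4 of 6 monocyte-attracting chemokines (Ccl4, Ccl3, Ccl7 and Ccl8), 6 of 10 macrophage markers and 6 of 7 T cell markers were higher in UV2 tumors. So were 3 of 15 NF-κB feedback genes (Nfkbia, Relb and Zfp36) and 2 of 17 neutrophil markers (Fpr1 and Fpr2, formyl peptide receptors of neutrophils and macrophages), both smaller shares than that of all genes. Il12b, Cxcl12, Lum and Acta2 were also higher, and Lif, Kitl, Pdgfra and Axl lower. These calls depended on single libraries. Of 6 fits that each leave out a library, Nfkbia, Ccl4, Ccl3, Fpr2 and Il12b passed in 4, Lif, Kitl and Pdgfra in 3, Ccl7, Fpr1, Cxcl12 and Acta2 in 2, Ccl8, Lum and Axl in 1, and Relb and Zfp36 in 0. Of the called macrophage and T cell markers, Csf1r and Cd8a passed in 1 of these fits, Ly6c2 in 3 and the others in 4. Under isotype, where 1.29% of all genes passed, Tnf, Il12b, Fcgr1 and Ly6c2 were the genes of these lists called, all higher in UV2 tumors. Tnf passed in 3 of the 6 fits that leave out a library, Fcgr1 and Ly6c2 in 2 and Il12b in 1 (limma adjusted p up to 0.194).

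Summed markers of neutrophils, skin, fibroblasts and macrophages were higher in every triple therapy library than in every parental isotype library. Their part in the chemokine result was not tested. The 19 neutrophil markers found in the table summed to 3941.04, 287.83 and 713.7 TPM in triple therapy replicates 1, 2 and 3, against 105.11 to 259.07 TPM with parental anti-PD-1 and 67.66 to 268.05 TPM with parental isotype. In UV2 tumors the sum was 220.54 to 448.81 TPM with anti-PD-1 and 209.87 to 360.15 TPM with isotype. S100a8, an abundant neutrophil protein that stressed keratinocytes also make, gave 1618.01, 46.42 and 220.16 TPM with triple therapy and at most 85.47 TPM elsewhere. S100a9, another of the 19, gave 1536.11, 49.8 and 215.51 TPM with triple therapy and at most 86.33 TPM elsewhere. S100a8 and S100a9 together made up most of the neutrophil sum in triple therapy replicates 1 and 3. The sum thus need not reflect neutrophils alone. In triple therapy replicate 2 it stood little above the highest parental isotype library (287.83 against 268.05 TPM). Single markers differed. Retnlg overlapped, at 61.35, 5 and 8.16 TPM with triple therapy against 5.74, 0 and 25.05 TPM with parental isotype. Fpr1 did not, at 30.19, 18.13 and 15.44 TPM against 1.75, 2.2 and 5.93 TPM in the same order of groups. The 15 keratinocyte markers summed to 31770.8, 217.16 and 2256.8 TPM in the same order of triple therapy replicates, to 10.38, 12.18 and 446.25 TPM with UV2 anti-PD-1, and to at most 11.63 TPM in the other 9 libraries. Krt5, a basal keratin, was at most 0.13 TPM in the 11 libraries outside triple therapy and UV2 anti-PD-1 replicate 3. Of the neutrophil markers, 0 to 3 were at 0 in a triple therapy library, 0 to 5 with parental anti-PD-1 and 1 to 6 with parental isotype. Cxcl2, Cxcl3, Cxcl5 and Il1a were highest in the library with the most skin and neutrophil marker RNA, and Cxcl1 was highest in the triple therapy library with the least. The 9 fibroblast markers summed to 28630.7, 6375 and 12813.4 TPM with triple therapy, 8406.88, 2972.92 and 3116.26 TPM with parental anti-PD-1 and 4493.21, 4689.62 and 4131.34 TPM with parental isotype. In UV2 tumors the fibroblast sum was 7269.59, 11498.5 and 2700.92 TPM with anti-PD-1 and 4752.25, 2404.09 and 7030.35 TPM with isotype. It was highest in the same library as Cxcl5 in every group but parental isotype. This was not particular to fibroblast markers. The sums of the 7 endothelial markers and of the 8 skeletal muscle markers were each highest in the same library as Cxcl5 in every group. The 10 macrophage markers summed to 3656.73 to 6912.06 TPM with triple therapy, 2267.61 to 3845.57 TPM with parental anti-PD-1 and 2291.86 to 3066.52 TPM with parental isotype, and to 5728.82 to 7056.03 TPM with UV2 anti-PD-1 and 3245.87 to 4964.18 TPM with UV2 isotype. Triple therapy and parental isotype did not overlap in the neutrophil, keratinocyte, fibroblast or macrophage sum. Triple therapy and parental anti-PD-1 overlapped in the fibroblast and macrophage sums.

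**Figure D3:**
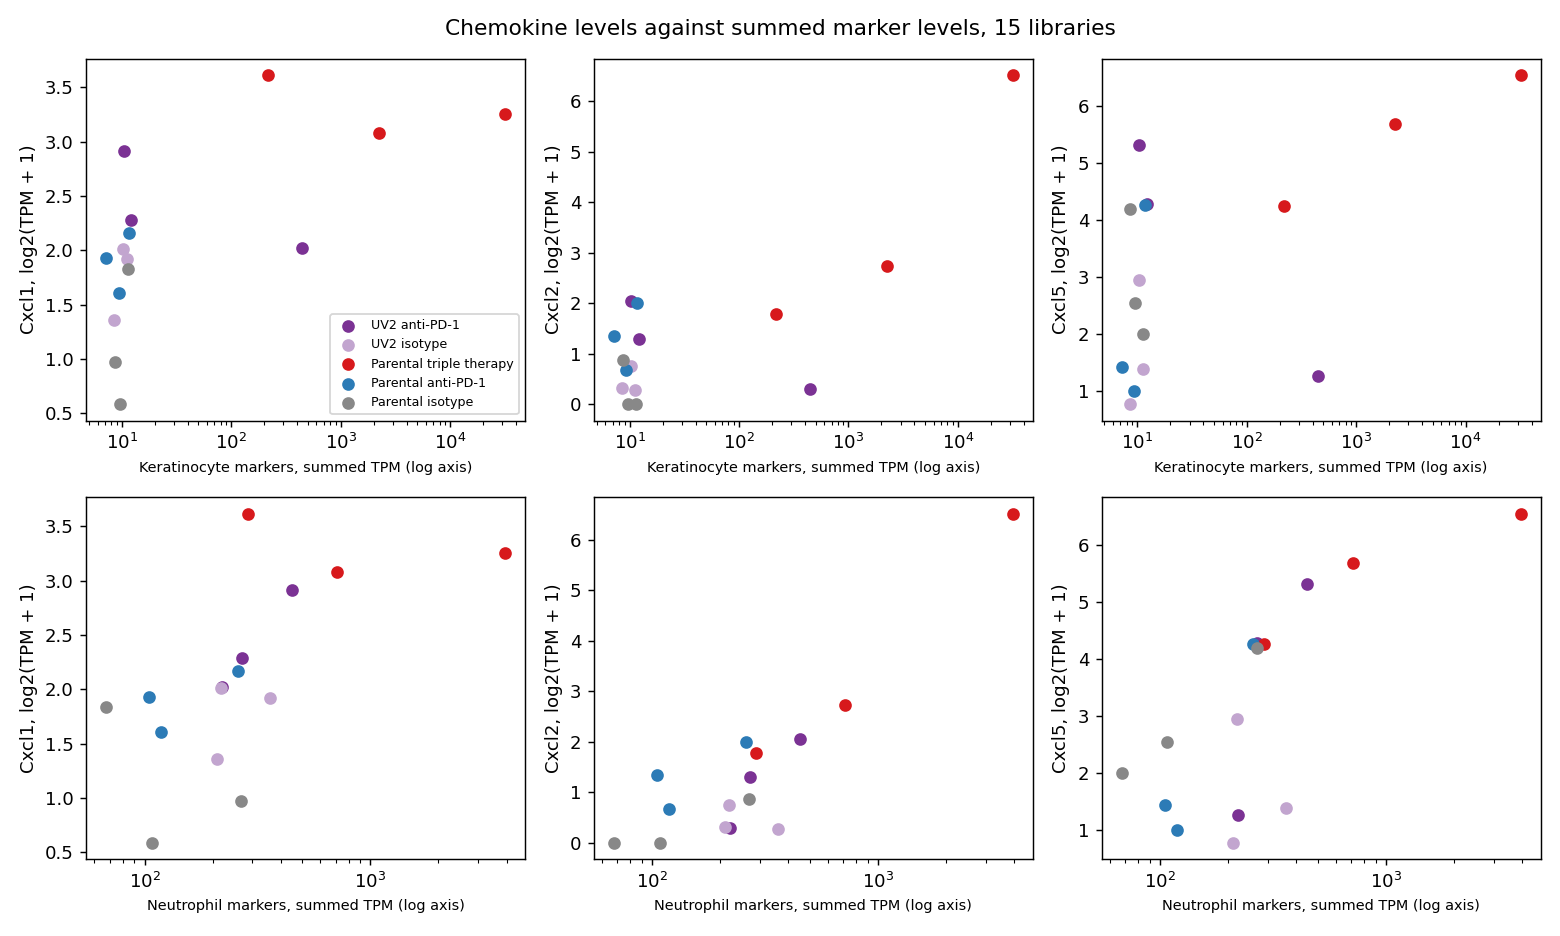
Cxcl1, Cxcl2 and Cxcl5 (columns, log2(TPM + 1) on the vertical axis) against the summed TPM of 15 keratinocyte markers (top) and 19 neutrophil markers (bottom) on log horizontal axes, 1 point per library, coloured by group. Cxcl2 and Cxcl5 are highest in triple therapy replicate 1, which has 31770.8 TPM of keratinocyte and 3941.04 TPM of neutrophil markers, while Cxcl1 is highest in triple therapy replicate 2, which has 217.16 and 287.83 TPM.

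Csf2 was set beside T cell markers. The 7 T cell markers summed to 353.9 to 486.62 TPM with UV2 anti-PD-1 and 65.49 to 310.41 TPM with UV2 isotype, against 46.26 to 64.56 TPM with triple therapy, 34.08 to 103.98 TPM with parental anti-PD-1 and 38.41 to 133.02 TPM with parental isotype. Activated T cells are a known source of GM-CSF, and the part of T cells in the Csf2 values was not tested. Every UV2 anti-PD-1 library exceeded every UV2 isotype library in this sum. The Csf2 mean was 0.98 TPM with UV2 anti-PD-1 and 1.19 TPM with UV2 isotype, with overlapping ranges. Csf2 entered the test only through UV2 libraries, so nothing is read from its higher values there. The highest Csf2 value, 2.21 TPM in UV2 isotype replicate 2, came with 67.08 TPM of Ear2, an eosinophil-associated ribonuclease that macrophages also make, and 57.00 TPM of Ccl17, a chemokine of dendritic cells and macrophages. Neither exceeded 18.7 TPM in any of the other 14 libraries. Both genes were chosen for their likeness to Csf2 over these same libraries (Pearson r = 0.866 for Ear2 and 0.798 for Ccl17). Their peak beside that of Csf2 follows largely from this choice, and nothing is read from it about cell types.

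The tissue label was checked against melanoma genes. Of 10 melanocyte and melanoma markers, Mitf, Tyr, Axl, Ngfr and Nes passed the filter, and Sox10, Tyrp1, Dct, Pmel and Mlana, most of them pigment cell genes, did not. The sum of the 10 ran from 218.37 to 580.22 TPM over all libraries, of which Axl, a receptor that many other cells also express, made up 65.8% to 89.6%. Sox10, Tyrp1, Dct, Pmel and Mlana were each listed at 0 in at least 1 library and reached at most 6.86 TPM in any.

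The genes whose levels most resembled each chemokine over 15 libraries are given as a description by Pearson r of log2(TPM + 1); libraries of a group share their treatment, so the points are not independent. For Cxcl2 they were Fabp5 (r = 0.965), Pcdhgb7 (0.960), Il1a (0.957), Ptprf (0.956) and Gnai1 (0.951). For Cxcl3 they were Il1a (0.953), Cxcl2 (0.939), Plin2 (0.936), Gsta4 (0.918) and Tuba4a (0.917). Triple therapy replicate 1 weighs heavily in both: without it, over 14 libraries, Il1a stood at 0.829 with Cxcl2 and 0.795 with Cxcl3, and Cxcl2 with Cxcl3 at 0.753. For Cxcl5 the leading genes were Sod3 (0.966), Tmem26 (0.961), Nsg1 (0.961), Has2 (0.955) and Chl1 (0.953), and they held their values without that library, Sod3 at 0.957 and Has2, a hyaluronan synthase, at 0.940. Sod3, the extracellular superoxide dismutase, measured 315.13, 149.04 and 221.41 TPM with triple therapy, 208.63, 51.49 and 55.49 TPM with parental anti-PD-1 and 100.23, 96.18 and 143.1 TPM with parental isotype, with the same highest library as Cxcl5 in each of these groups. In UV2 tumors it was 130.6, 224.83 and 53.81 TPM with anti-PD-1 and 44.45, 41.11 and 117.73 TPM with isotype, again highest where Cxcl5 was. Sod3 was chosen for its likeness to Cxcl5 over these same libraries. The shared highest libraries follow largely from this choice, and nothing is read from them.

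Cxcl1 had the weakest partners among the chemokines: Tekt2 (0.866), Emx2 (0.820), Rcbtb1 (0.810), Hmox1 (0.806) and Adam33 (0.798). Hmox1, the stress-induced heme oxygenase, measured 1059.44, 373.53 and 404.84 TPM with triple therapy and at most 204.03 TPM elsewhere, the same split of libraries as Cxcl1. Hmox1 was chosen for its likeness to Cxcl1 over these libraries, so the shared split follows largely from this choice. For Csf2 the leading genes were Ear2 (0.866), Prr15 (0.801), Ccl17 (0.798), Pex6 (0.795) and Pkib (0.778). Among the set itself, Cxcl2 and Cxcl3 were the closest pair (0.939), a value that the shared 110 bases touch. Without triple therapy replicate 1 the closest pair was Cxcl2 and Cxcl5 (0.800). Cxcl5 stood at 0.778 with Cxcl2 and 0.737 with Cxcl3, Cxcl1 at 0.673, 0.652 and 0.628 with Cxcl2, Cxcl3 and Cxcl5, and Csf2 at 0.0227, 0.0325 and 0.00775 with the same 3. Csf2 stood at 0.413 with Cxcl1, and at 0.688 over the 12 libraries without triple therapy.

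**Figure D4:**
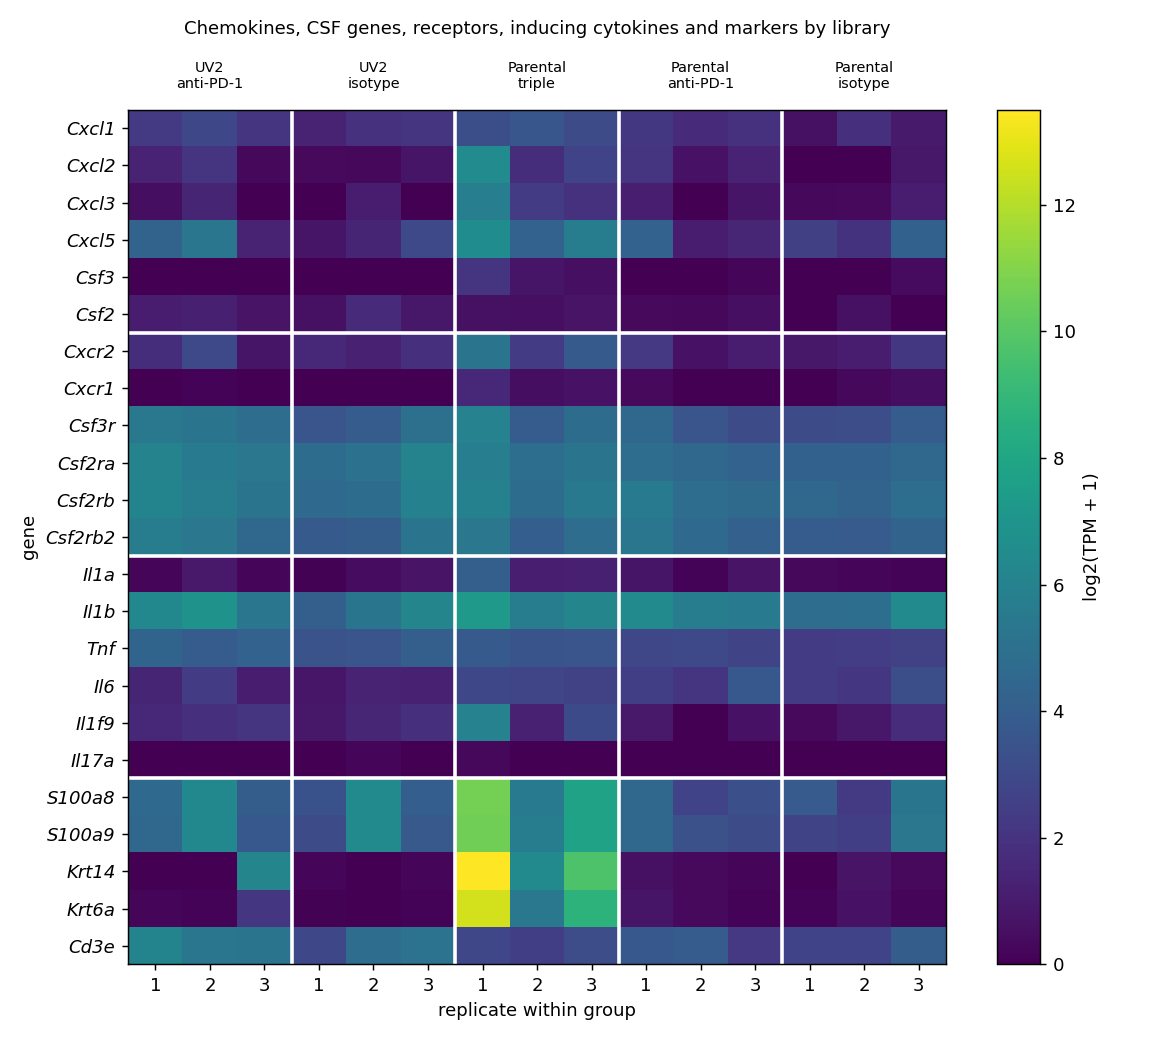
Levels as log2(TPM + 1), shown by colour, of the 6 genes, their receptors, inducing cytokines and cell markers (rows) in the 15 libraries (columns, replicates 1 to 3 within each group). Triple therapy replicate 1 is bright for Cxcl2, Cxcl3, Cxcl5, Il1a, Il1f9, S100a8 and the keratins, Il17a is dark in every library, and Csf3 is near 0 outside triple therapy.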

How the data were processed

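The deposited table held 15 columns of TPM values, computed by the authors with Bowtie2 and RSEM on mm10/GRCm38, per the submitters' processing notes, which give no versions; 0 columns were left unused. It held no read counts, so depth is unknown and no count test was run. Limma 3.58.1 (R 4.3.3) modelled log2(TPM + 1) over all 5 groups (trend and robust variance, 10 residual degrees of freedom, two-sided, Benjamini-Hochberg threshold 0.05), after keeping the 13592 genes with at least 1 TPM in at least 3 libraries. The fit was tested on simulated data. Csf3, below that filter, was tested by exact permutation (scipy 1.17.1). Alternatives were a pseudocount of 0.1, no filter, median-of-ratios scaling, the compared groups alone, a replicate block and each library left out. The 6 genes, the gene lists and the tests were chosen with earlier results of these data known. List genes named are up to 4 called genes with the smallest p, and the receptors and inducers always; likeness names the 5 genes with the highest r. Promoters came from RefSeq, and positions and 3′ UTRs from GENCODE M21, both on GRCm38.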

Additional observations from a re-analysis of the deposited data

How the results depend on the processing

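Of 175 fold changes of the chemokine and Csf2 genes refitted under the 5 other settings, 170 kept their direction and side of the threshold; none of the genes passed the test under any of these settings. The 5 that changed sign were near 0: with median-of-ratios scaling, 0.0048 for Cxcl2 and 0.0715 for Cxcl3 (UV2 against parental, anti-PD-1), -0.0049 for Cxcl3 (parental anti-PD-1 against isotype) and 0.0336 for Cxcl1 (interaction), and with a pseudocount of 0.1, -0.1743 for Cxcl3 (parental anti-PD-1 against isotype). With that pseudocount the Csf3 difference was 2.8299 for triple therapy against isotype, 3.0537 against anti-PD-1, -0.7014 between the lines under isotype and -0.4777 under anti-PD-1, since a smaller pseudocount widens differences from values at 0.

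Counts of genes called moved more. Between the lines under isotype (176), they were 82 with no filter and 21 with the compared groups alone. For anti-PD-1 against isotype in UV2 tumors (2), they were 1 with median-of-ratios scaling and 0 with the compared groups alone. For triple therapy against isotype (3), they were 5 with a pseudocount of 0.1 and 0 with no filter, median-of-ratios scaling or the compared groups alone, and against anti-PD-1 (0) they were 4 with a pseudocount of 0.1. The cause was not tested. The samples share only a replicate number: over 30 same-numbered pairs the correlation of deviations from group means had a median of -0.0752, and 10 of the 30 exceeded 0.1. With a replicate block, 37 genes were called between the lines under isotype, 2526 under anti-PD-1 and 0 for triple therapy against isotype, and the 5 genes tested kept the same side of the threshold.

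Leaving out each library in turn gave 3 to 458 genes called between the lines under isotype, 9 to 4074 under anti-PD-1, 0 to 3 for anti-PD-1 in UV2 tumors, 0 to 257 for triple therapy against isotype and 0 to 195 against anti-PD-1; of the 5 genes tested, 0 to 2 were called for triple therapy against isotype. Of 240 such fold changes, 23 changed sign. Cxcl3 ran from -0.5759 to 0.0164 and from -0.3901 to 0.3075 between the lines under isotype and anti-PD-1, from -0.1889 to 0.3733 and from -0.0954 to 0.6268 for anti-PD-1 in parental and UV2 tumors, and from -0.1523 to 0.5699 in the interaction. Cxcl2 ran from -0.5436 to 0.3319 between the lines under anti-PD-1 and from -0.7017 to 0.1738 in the interaction, Csf2 from -0.3145 to 0.2248 for anti-PD-1 in UV2 tumors, and in the interaction Cxcl1 from -0.4797 to 0.1437 and Csf2 from -0.5092 to 0.03. A group left with 2 libraries borrowed its spread from the others. Depth is unknown, so TPM below 1 carry an unstated counting error.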
